A study of Rattus norvegicus with 31 samples.

Results

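Mechanosensitive ion channels were described here through 8 genes, Piezo1, Piezo2, Trpv2, Trpv4, Pkd1, Pkd2, Tmem63a and Tmem63b, chosen by name from the 32883 gene entries of the deposited tables. All 8 had reads in each of 31 bulk RNA-seq libraries from male Sprague-Dawley rats (labelled SD/Rij, chow-fed, age 10 to 15 weeks, time point 15 weeks). Perivascular adipose tissue (PVAT), the fat around the thoracic aorta, was taken above and below a silk ligature on the descending aorta, and brown adipose tissue (BAT) was sampled as well. In coarctation the ligature was tied to narrow the vessel, which by radiotelemetry left a systolic step near 20 mmHg 4 weeks later, and in sham surgery it was placed but left loose. From coarcted rats there were 6 PVAT libraries from above the ligature (coarct above), 6 from below it (coarct below) and 5 of BAT (coarct BAT). From sham rats there were 5 from above (sham above), 5 from below (sham below) and 4 of BAT (sham BAT). No gene was altered in any group, and all groups, controls included, had the chest opened and a ligature placed. The labels do not say which brown fat depot was taken. Libraries are named below by group and the number in the title, and numbers recur across sites. No source states that libraries of 1 group came from separate rats, so the p-values speak only of the spread among these libraries, which may be technical.

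Mechanosensitive channels open when the membrane is stretched or sheared and let cations in. Piezo1 is the stretch- and shear-gated channel of endothelium and many other cells, and Piezo2 is its relative in touch and stretch-sensing sensory neurons. Trpv2 and Trpv4 are calcium-permeable channels of the vanilloid family. Both respond to osmotic and mechanical stimuli, and in mice Trpv2 takes part in brown fat heat production and Trpv4 restrains that programme in fat cells. Pkd1 encodes polycystin-1, a large membrane protein that assembles with the cation channel polycystin-2, encoded by Pkd2, in primary cilia. Tmem63a and Tmem63b encode stretch- and osmolarity-activated channels of the OSCA/TMEM63 family. Aortic PVAT lies on a pulsating vessel wall, and the design asked how raised pressure above the narrowing changes it.

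The genes lie on separate chromosomes except Pkd1 and Trpv2. The deposited annotation, whose build is not given in the sources used here, places Piezo1 (ENSRNOG00000056786) on chromosome 19 from 55305496 and Piezo2 (ENSRNOG00000038784) on chromosome 18 from 58354648, both on the minus strand. It places Trpv2 (ENSRNOG00000003104) and Pkd1 (ENSRNOG00000010771) on the plus strand of chromosome 10 from 48903540 and 13915214. Trpv4 (ENSRNOG00000001195) is on chromosome 12 from 47698947, Pkd2 (ENSRNOG00000002146) on chromosome 14 from 6602004, Tmem63a (ENSRNOG00000003310) on chromosome 13 from 99220510 and Tmem63b (ENSRNOG00000019743) on chromosome 9 from 17705212. The RefSeq promoter table, on build GRCr8, had an entry for 6 of the 8 genes. The 250 bases before the start are shown for Piezo2, Pkd1 and Pkd2, because these 3 transcripts varied together over the libraries, and for Trpv2, because it did not vary with them. The windows are chr18:59115216-59115465 (minus strand) for Piezo2, chr10:14078429-14078678 (plus strand) for Pkd1, chr14:5585141-5585390 (minus strand) for Pkd2 and chr10:47771973-47772222 (plus strand) for Trpv2. They are written 5′ to 3′ on the strand of the gene, with the GC box, GGGCGG or its reverse complement CCGCCC, in capitals.
Piezo2: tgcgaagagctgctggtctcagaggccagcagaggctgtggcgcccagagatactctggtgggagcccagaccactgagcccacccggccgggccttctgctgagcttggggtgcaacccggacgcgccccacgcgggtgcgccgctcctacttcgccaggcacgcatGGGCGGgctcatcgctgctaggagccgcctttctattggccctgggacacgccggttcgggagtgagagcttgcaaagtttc
Pkd1: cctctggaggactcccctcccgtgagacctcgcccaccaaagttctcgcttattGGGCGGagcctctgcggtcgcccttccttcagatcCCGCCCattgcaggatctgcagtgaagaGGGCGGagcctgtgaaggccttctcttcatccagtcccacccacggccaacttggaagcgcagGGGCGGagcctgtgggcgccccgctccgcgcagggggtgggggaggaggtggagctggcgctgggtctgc
Pkd2: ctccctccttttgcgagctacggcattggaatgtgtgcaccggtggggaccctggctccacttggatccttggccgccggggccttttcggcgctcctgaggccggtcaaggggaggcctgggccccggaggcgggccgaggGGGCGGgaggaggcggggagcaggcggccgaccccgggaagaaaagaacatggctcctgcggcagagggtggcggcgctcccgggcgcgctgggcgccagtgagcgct
Trpv2: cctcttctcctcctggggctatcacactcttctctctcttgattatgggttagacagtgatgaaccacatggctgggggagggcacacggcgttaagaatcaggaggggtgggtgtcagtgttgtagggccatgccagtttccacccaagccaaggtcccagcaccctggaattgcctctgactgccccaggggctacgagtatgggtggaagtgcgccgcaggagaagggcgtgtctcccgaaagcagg
The Pkd1 window held 4 GC boxes, the Piezo2 and Pkd2 windows held 1 each, and the Trpv2 window held 0. Of the windows not shown, that of Trpv4 held 2 and that of Tmem63a 1. A GC box was present in 30.5% of the 33469 windows of that length in the table. The TATA box, searched as TATAAA and its reverse complement TTTATA, was in 0 of these 4 windows and in 12.9% of all. The CCAAT box, searched as CCAAT and ATTGG, was found once each in the Piezo2, Pkd1 and Pkd2 windows and not in those of Trpv2, Trpv4 and Tmem63a, against 34% of all windows. Their GC content was 66.8% for Piezo2, 67.2% for Pkd1, 72.4% for Pkd2 and 58.4% for Trpv2, beside a median of 51.2% over all windows.

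Library totals ran from 15713160 to 26530733 counts. All groups carried brown fat transcripts in quantity, with Ucp1, the uncoupling protein of brown adipocytes, at 830 to 2504 CPM (counts scaled to the library total) over the 31 libraries. Tissues next to the fat were represented unevenly. Sympathetic neuron markers summed to 349 to 854 CPM in 5 PVAT libraries from below the ligature (coarct below 23, 25, 29 and 30 and sham below 28) and to at most 31.96 CPM in the other 26. All 16 markers of that list had counts below the ligature, while 4 and 5 of them were at 0 in coarct BAT and sham BAT. Cardiac muscle markers had group medians of 723 CPM in coarct above and 980 CPM in sham above, against at most 3.99 CPM in the other 4 groups. Coarct BAT 29 stood apart in how counts changed with gene length: its slope of log2 level on log10 length was -0.96, against -0.40 to 0.60 in the other 30. In bulk tissue, fewer cells of a type and less RNA per cell cannot be told apart.

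Per unit of gene length, Tmem63b and Piezo1 were the most abundant of the 8 and Piezo2 the least. FPKM, which scales counts to gene length and library total, allows genes to be compared. The median FPKM over the 31 libraries was 26.7 for Tmem63b (range 18.7 to 39.5) and 16.2 for Piezo1 (7.65 to 30.8). The polycystins followed with 5.64 for Pkd2 (2.19 to 8.26) and 5.12 for Pkd1 (2.16 to 7.86). Tmem63a stood at 3.11 (1.99 to 4.13), Trpv2 at 0.98 (0.56 to 1.98), Trpv4 at 0.56 (0.25 to 1.08) and Piezo2 at 0.17 (0.01 to 0.66). The order was steady: Trpv2 ranked sixth in all 31 libraries, and Tmem63b ranked first in 29, with Piezo1 first in the other 2. Pkd1 and Pkd2 did not separate, since the ratio of their FPKM ran from 0.58 to 1.23 with a median of 0.92. Within the TMEM63 pair, Tmem63b exceeded Tmem63a 5.92- to 14.7-fold in FPKM, and Trpv2 exceeded Trpv4 by 1.03- to 3.83-fold. Piezo1 exceeded Piezo2 by at least 21.1-fold in each library.

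**Figure D1:**
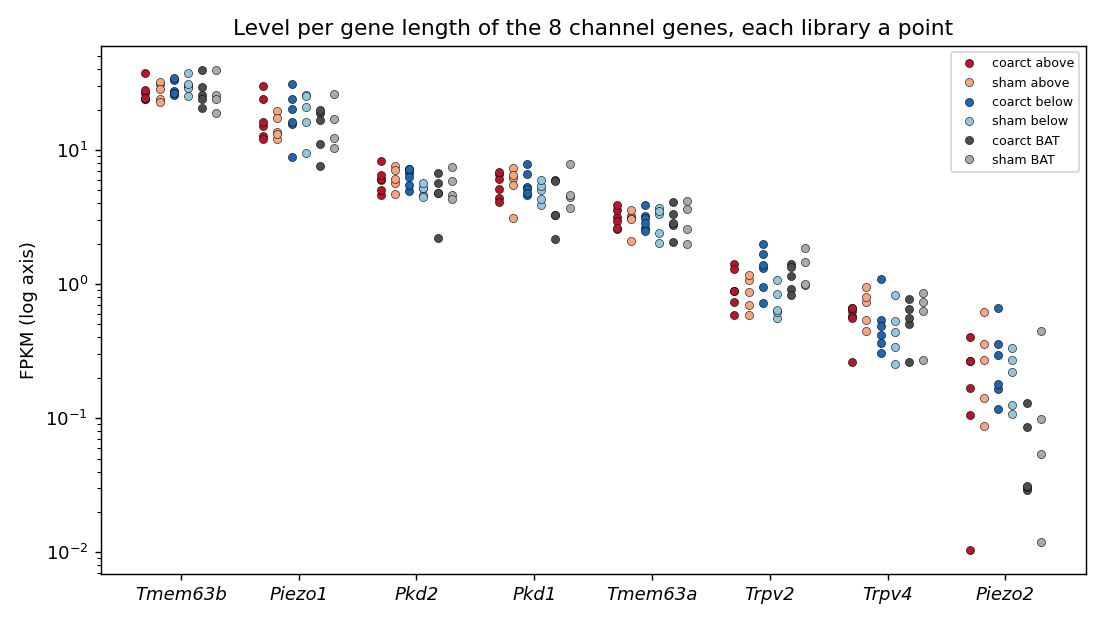
FPKM (log axis) of the 8 channel genes, ordered by their median, with 1 point per library coloured by group. Tmem63b and Piezo1 form the top with medians of 26.7 and 16.2, Piezo2 lies lowest with a median of 0.17, and the colours overlap for every gene.

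No channel gene passed the test in any comparison, and the ranges of CPM overlapped for all 8 genes in all 15 pairs of groups. Differences were tested with edgeR's quasi-likelihood test across the whole table, and a call required an adjusted p (Benjamini-Hochberg) under 0.05. Over the 10 comparisons, 79 tests of a channel gene were made, of which 5 had an unadjusted p under 0.05, 3 of them for Trpv2 and 2 for Piezo2. The share of all genes at an unadjusted p under 0.05 ran from 2.42% to 23.9% by comparison. Where the 5 tests fell, it was 5.12% in coarct below against sham below. It was 8.12% and 10.5% in sham above and sham below against BAT. In coarct above and coarct below against BAT it was 16.7% and 23.9%. A p that misses the threshold does not show that levels were equal, so each difference is given with its 95% interval.

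**Figure D2:**
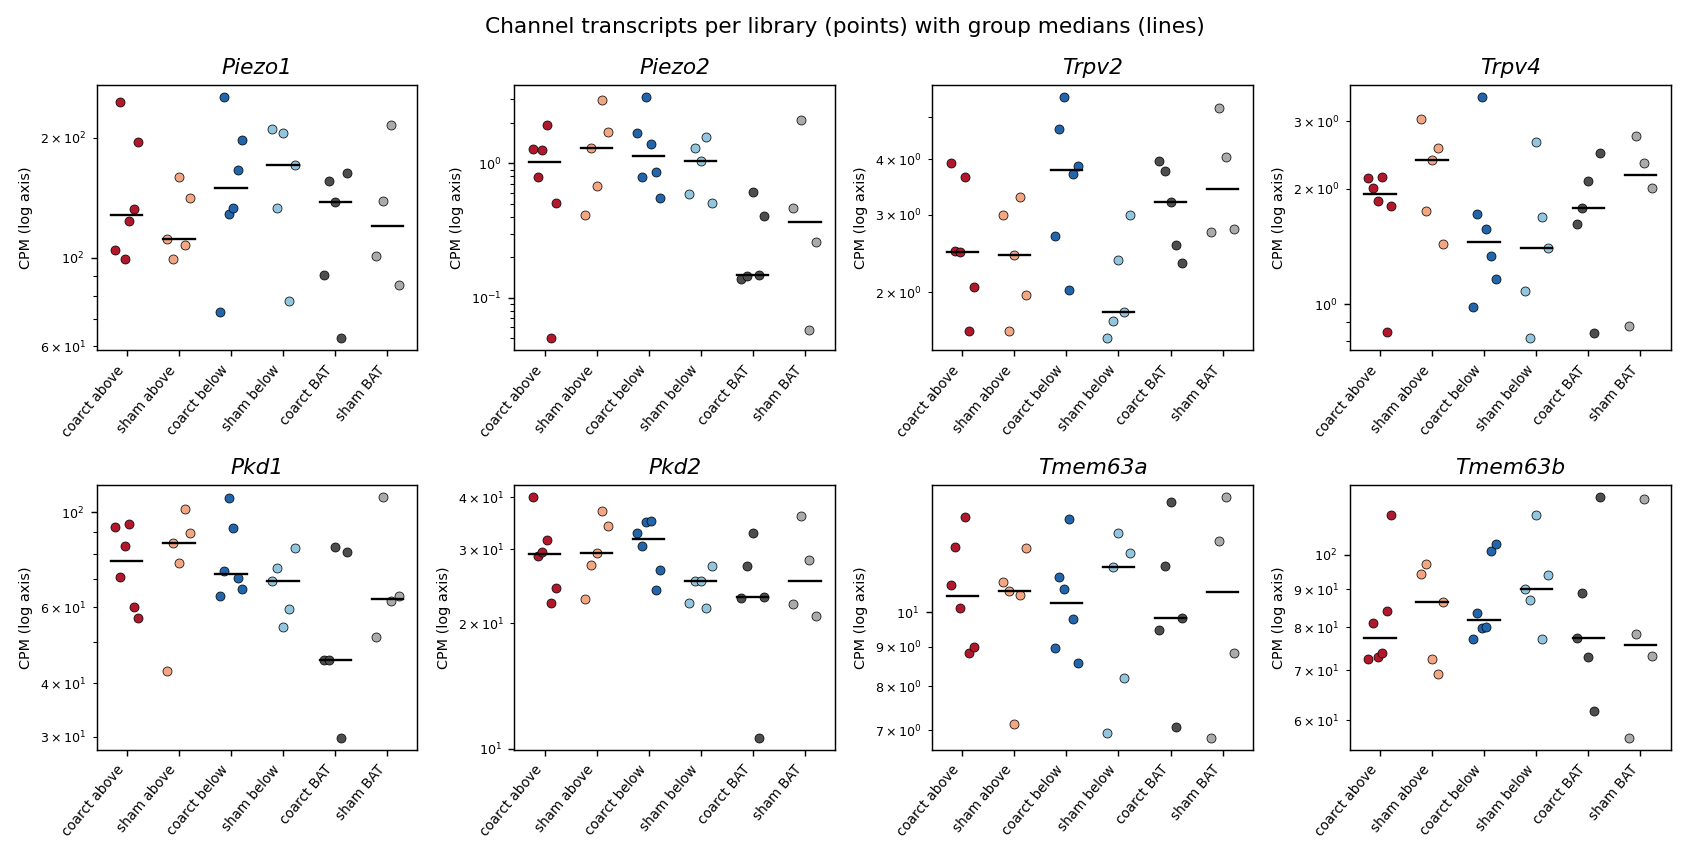
CPM (log axis) of each channel gene in the 6 groups, with 1 point per library and a line at the group median. The points of all groups overlap in every panel; Piezo2 is spread from 0.05 to 3.12 CPM, and Tmem63a stays between 6.84 and 14.2 CPM.

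Above the ligature, the site under raised pressure, 0 of the 8 genes differed between coarctation and sham by edgeR, with 0 at an unadjusted p under 0.05 and 0 called by DESeq2 or limma. Over all 14556 genes tested, edgeR called 0, a share of 0%, with 523 at an unadjusted p under 0.05. Piezo1 in coarct above ran from 99.5 to 245 CPM with a median of 128 (n = 6). In sham above it was 111, 99.5, 160, 108 and 141 CPM in libraries 20, 22, 24, 26 and 28. Coarct above 23 and 30, with 245 and 195 CPM, exceeded all 5 sham above libraries, and the other 4, at 99.5 to 132 CPM, did not. The log2 difference was 0.35, with a 95% interval from -0.28 to 0.98 and an edgeR adjusted p = 0.999. For Pkd1 and Pkd2 the log2 differences were -0.01 and 0.01, with intervals of -0.36 to 0.34 and -0.24 to 0.26. Tmem63a and Tmem63b differed by 0.12 and 0.06 on the log2 scale, with intervals of -0.19 to 0.43 and -0.26 to 0.39. The interval was wider for Trpv4, -0.91 to 0.37 around -0.27, and widest for Piezo2, -1.67 to 0.65 around -0.51. Trpv2 differed by 0.17, with an interval of -0.36 to 0.70.

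Below the ligature, Trpv2 had the lowest p of the 8 genes, yet 0 of 8 were called by edgeR, DESeq2 or limma, beside a share of 0% of all 14556 genes by edgeR (745 at an unadjusted p under 0.05). In coarct below, Trpv2 measured 2.68, 4.69, 5.54, 2.02, 3.70 and 3.87 CPM in libraries 19, 23, 25, 27, 29 and 30. In sham below it was 1.57, 1.72, 2.37, 1.81 and 2.99 CPM in libraries 20, 22, 24, 26 and 28. All 6 coarcted libraries lay above the sham median of 1.81 CPM, and the ranges overlapped between 2.02 and 2.99 CPM. The log2 difference was 0.73 (SE 0.258, unadjusted p = 0.0104, edgeR adjusted p = 0.881), with an interval of 0.19 to 1.26. Trpv2 was the only 1 of the 8 with an unadjusted p under 0.05 here, and it ranked 128th by p among all genes tested. The next lowest p was that of Pkd2, whose mean was 30.7 ± 4.51 CPM (SD, n = 6) with coarctation against 24.4 ± 2.31 CPM (n = 5) with sham. The log2 difference was 0.22 with an interval of -0.03 to 0.48. Piezo1 was close in both, with 159 ± 62.2 CPM (n = 6) and 160 ± 55.4 CPM (n = 5), a log2 difference of -0.11 (interval -0.74 to 0.52). That of Pkd1 was 0.10 (-0.25 to 0.45), that of Tmem63a -0.08 (-0.39 to 0.23) and that of Tmem63b -0.17 (-0.49 to 0.16). The intervals of Trpv4, -0.63 to 0.67 around 0.02, and of Piezo2, -0.83 to 1.51 around 0.34, were wider.

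The higher Trpv2 values below the ligature lay in the libraries with neuron transcripts. Those 5 libraries held 2.99 to 5.54 CPM of Trpv2, and the other 6 below libraries held 1.57 to 2.68 CPM, with no overlap. How many of all genes separate the same libraries was not counted. The 11 above libraries, with neuron sums of at most 20.9 CPM, held 1.63 to 3.92 CPM of Trpv2 and so overlapped with the 5. These 5 libraries were set apart by their neuron markers, not by Trpv2, and 4 of the 5 were coarcted. Without them the log2 difference between coarct below and sham below was 0.29 (edgeR adjusted p = 0.863), from 2 and 4 libraries, and that between coarct above and coarct below turned from -0.43 to 0.18. Over the 31 libraries the 3 genes whose levels were most like those of Trpv2 were Tuba1a, an alpha-tubulin, Gap43, a protein of growing axons that is also on the neuron marker list, and Dclk3, a kinase. Their Spearman rho with Trpv2 was 0.77, 0.77 and 0.75. Trpv2 had a rho of 0.71 with the summed sympathetic neuron markers over the 22 PVAT libraries and of -0.17 over the 9 BAT libraries. With the summed erythroid markers rho over the 22 PVAT libraries was 0.72, and with the macrophage markers 0.082. After group means were removed, rho over the 31 libraries was 0.57 with the neuron and 0.55 with the erythroid sum. The erythroid sum was 1393 to 3549 CPM in coarct below (median 2377) and 689 to 1898 CPM in sham below (median 1329). These are descriptions over libraries that share title numbers and sites. The part of neuron or erythroid RNA in the difference between surgeries was not tested.

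**Figure D3:**
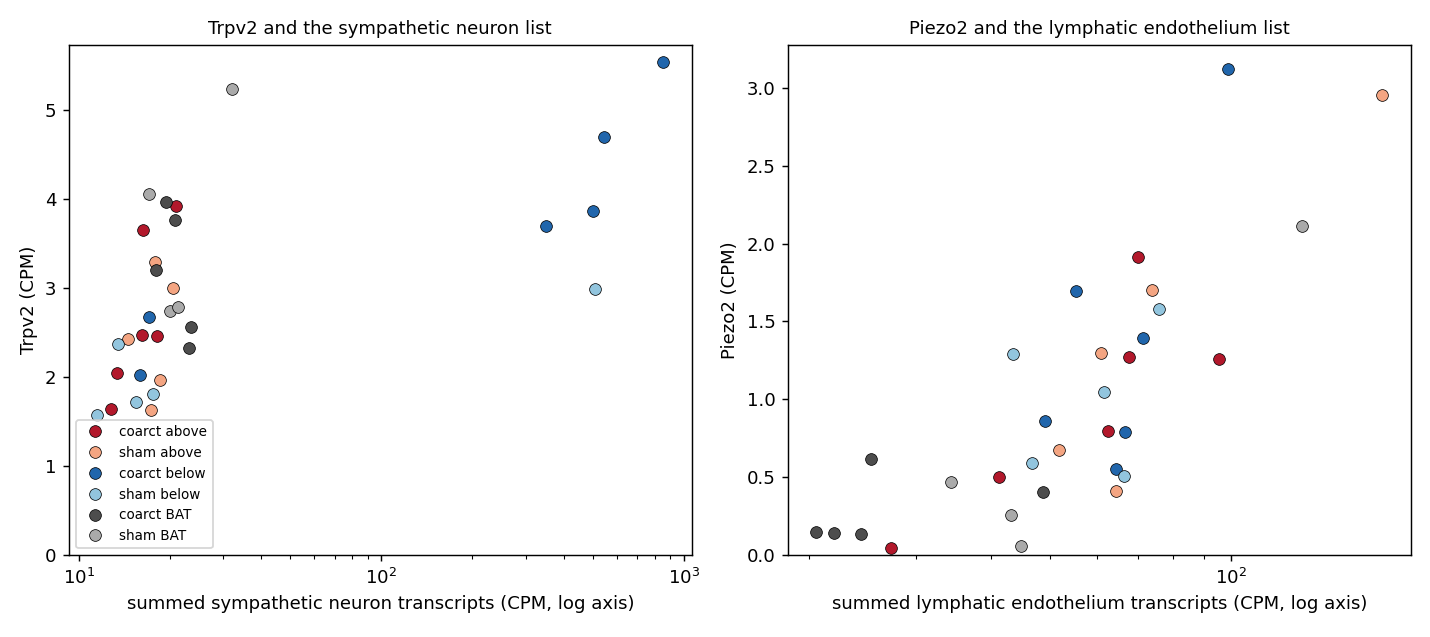
Left, Trpv2 (CPM) against the summed sympathetic neuron markers (CPM, log axis); right, Piezo2 (CPM) against the summed lymphatic endothelium markers (CPM, log axis); 1 point per library, coloured by group. The 5 below libraries at 349 to 854 CPM of neuron markers hold 2.99 to 5.54 CPM of Trpv2, while BAT reaches 5.24 CPM of Trpv2 at 31.96 CPM of neuron markers; Piezo2 is higher where the lymphatic sum is higher.

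Between the sites, 0 of 8 channel genes were called above against below the ligature, in coarcted or in sham rats, by edgeR, DESeq2 or limma, and 0 had an unadjusted p under 0.05 with edgeR. Of all genes, edgeR called 0.103% in coarcted and 0.0687% in sham rats. The lowest p in coarcted rats was that of Trpv2, with a log2 difference (above minus below) of -0.43 and an interval of -0.94 to 0.07. In the same comparison Piezo2 differed by -0.49, and the estimates of Piezo1, Trpv4, Pkd1, Pkd2, Tmem63a and Tmem63b lay between -0.02 and 0.15. In sham rats Piezo1 was lower above than below, at 124 ± 25.4 CPM (SD, n = 5) against 160 ± 55.4 CPM (n = 5). Its log2 difference was -0.47 with an interval of -1.12 to 0.19, in a fit without a block for the title number. Over the alternative settings, the block among them, the estimate ran from -0.49 to -0.29. The site difference of Tmem63b in sham rats was -0.25 (interval -0.59 to 0.09), that of Pkd2 was 0.19 (-0.07 to 0.46) and that of Trpv4 was 0.44 (-0.24 to 1.12). Piezo2, Trpv2, Pkd1 and Tmem63a differed there by 0.36, 0.12, 0.10 and -0.11. The interaction of surgery and site, which tests whether the site difference depended on coarctation, was called by edgeR for 0 of the 8 genes and for 0% of all 14556 (352 at an unadjusted p under 0.05, with 0 channel genes among them). DESeq2 and limma also called 0 of the 8. The largest interaction estimates on the log2 scale were -0.85 for Piezo2, -0.56 for Trpv2 and 0.45 for Piezo1, with intervals of -2.50 to 0.80, -1.31 to 0.19 and -0.43 to 1.34. Those of Trpv4, Pkd1, Pkd2, Tmem63a and Tmem63b were -0.29, -0.11, -0.22, 0.20 and 0.23.

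**Figure D4:**
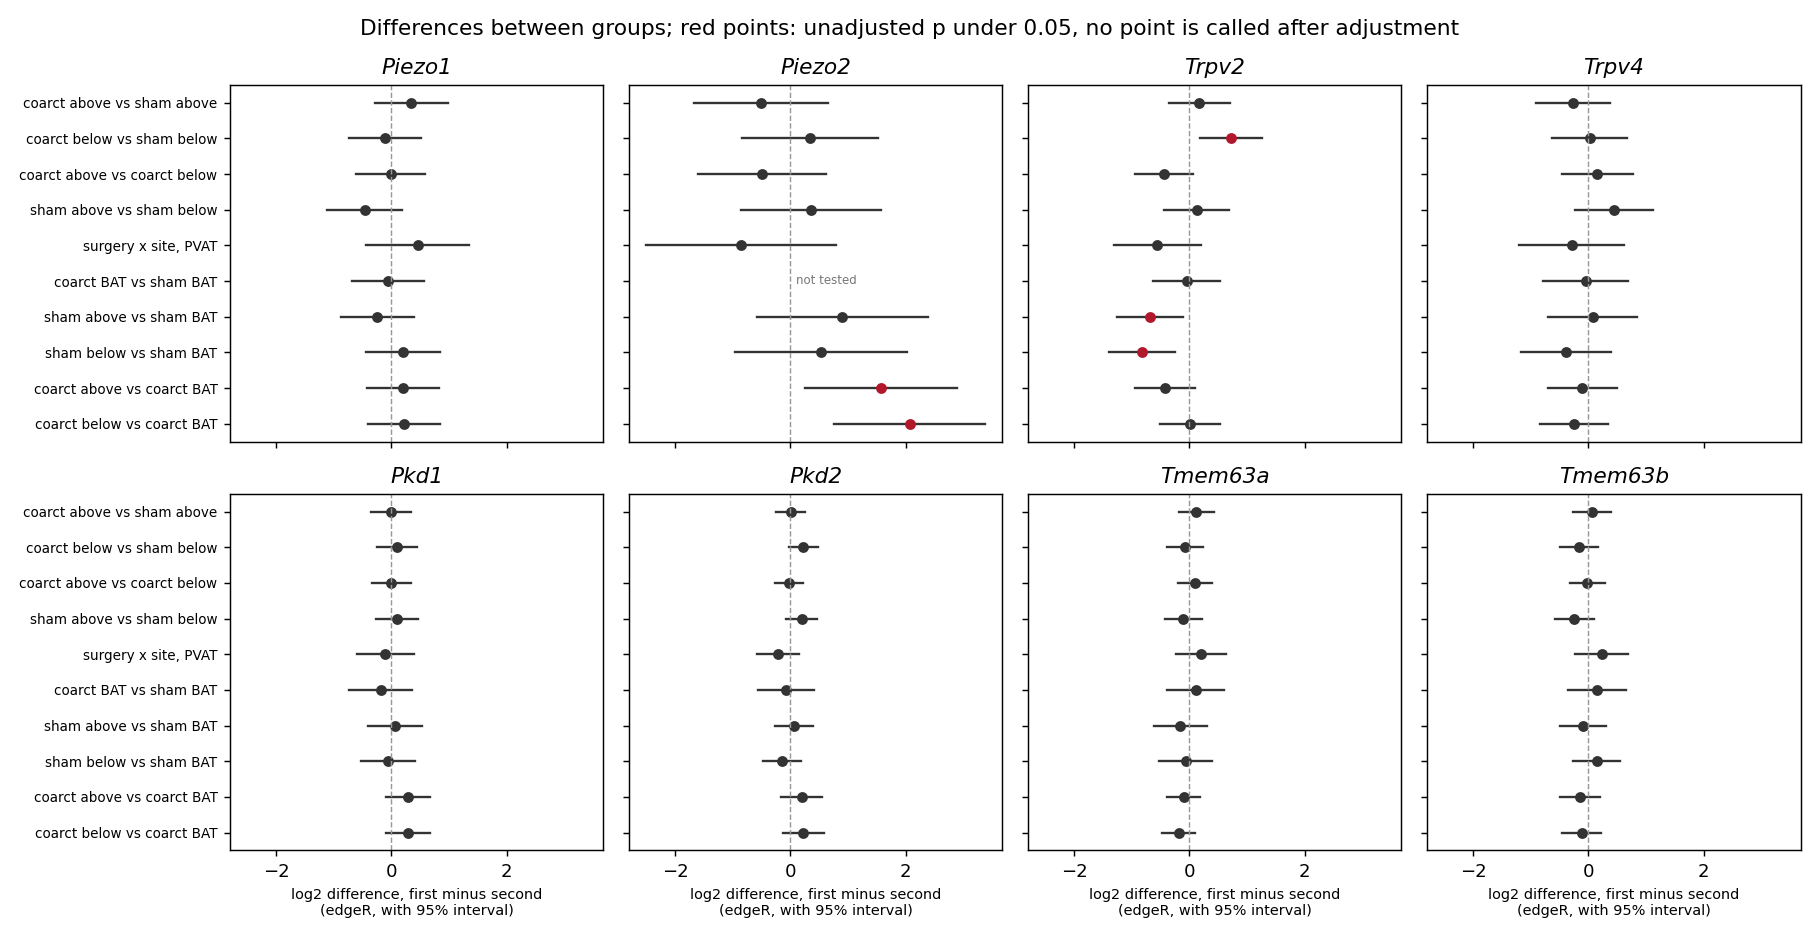
Log2 differences of the 8 channel genes in the 10 comparisons, first group minus second, with 95% intervals from edgeR; the row for surgery by site is the interaction. Red points mark the 5 tests with an unadjusted p under 0.05, in Trpv2 and Piezo2, and none passed after adjustment; the intervals of Pkd2 and Tmem63a are narrow and those of Piezo2 wide.

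In BAT, coarctation and sham were compared for 7 of the 8 genes, Piezo2 having too few counts to pass the filter, and 0 were called by edgeR, DESeq2 or limma. By edgeR 0 of the 7 had an unadjusted p under 0.05, beside 928 of all 13644 genes, of which 0% were called. Coarct BAT 29 had the lowest Piezo1, Pkd1 and Pkd2 of all 31 libraries, with 62.7, 29.8 and 10.6 CPM. Pkd1 was 45.4, 45.4, 83.0, 29.8 and 80.8 CPM in coarct BAT 19, 23, 27, 29 and 30, and 51.1, 109, 62.0 and 63.8 CPM in sham BAT 20, 22, 24 and 26. Both groups were spread widely and overlapped. Its log2 difference was -0.19 (interval -0.73 to 0.36), and -0.09 without coarct BAT 29. Pkd2 differed by -0.08, and by 0.06 without that library, and Piezo1 by -0.06, and by 0.04 without it. Trpv2 and Trpv4 both differed by -0.05, Tmem63a by 0.11 and Tmem63b by 0.15.

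Between PVAT and BAT, Piezo2 was higher in PVAT of coarcted rats at an unadjusted p in the main edgeR fit. There 0 of 8 genes were called by that fit or by limma at either site, while DESeq2 called Piezo2 in coarct below. Piezo2 did not pass the count filter among the BAT libraries alone and entered these tests through PVAT, where it was higher, so its differences from BAT are given as a description. In coarct BAT the Piezo2 counts were 3, 3, 10, 3 and 8 in libraries 19, 23, 27, 29 and 30, or 0.14, 0.14, 0.62, 0.15 and 0.40 CPM. In coarct below they were 31, 17, 53, 31, 20 and 10 in libraries 19, 23, 25, 27, 29 and 30, or 0.55 to 3.12 CPM with a median of 1.13. All 6 of these exceeded the BAT median, and the ranges overlapped only through coarct BAT 27 and coarct below 30. The log2 difference was 2.07 (SE 0.624, interval 0.76 to 3.38, unadjusted p = 0.00391, edgeR adjusted p = 0.0648), beside 4.2% of 14276 genes called in that comparison. DESeq2 called it (adjusted p = 0.0153), as did edgeR without coarct BAT 27 (2.503, adjusted p = 0.0221), and edgeR did not with the gene length slope as a covariate (1.76, adjusted p = 0.214). In coarct above, counts of Piezo2 ran from 1 to 42, the lowest in library 29. Against coarct BAT its log2 difference was 1.57 (interval 0.26 to 2.88, unadjusted p = 0.0217, edgeR adjusted p = 0.233), beside 1.28% of all genes called, and DESeq2 and limma called 0 of the 8 there.

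In sham rats the BAT libraries 20, 22, 24 and 26 held 8, 56, 1 and 5 Piezo2 counts. The 56 counts in sham BAT 22, the library with the highest total, came to 2.11 CPM, below the 3.12 CPM of coarct below 25 and the 2.95 CPM of sham above 26. Counts in the other 3 were as low as those in coarct BAT. That library also held the highest fibroblast marker sum, 15646 CPM, against 1583 to 10039 CPM in the other 30. The Piezo2 log2 differences were 0.90 for sham above and 0.53 for sham below against sham BAT, with intervals of -0.58 to 2.38 and -0.96 to 2.02. Without sham BAT 22 they were 2.15 and 1.78, with edgeR adjusted p = 0.258 and 0.402. The coarcted and sham comparisons use separate libraries, and the difference between them was not tested.

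Piezo2 was higher in libraries with more lymphatic endothelium and macrophage transcripts. Spearman rho with the sum of 7 lymphatic markers, among them Prox1, Lyve1 and Flt4, all with counts in every group, was 0.76 over 31 libraries, with a Pearson r of 0.76, and it was 0.71 without the 2 libraries farthest out and 0.58 after group means were removed. Other sums varied with Piezo2 as well: over the 31 libraries rho was 0.56 with the mesothelium, 0.51 with the B cell and 0.46 with the macrophage markers. After group means were removed, rho with the macrophage sum was 0.60, close to the lymphatic value. With the mesothelium and B cell sums it then fell to 0.29 and 0.22. The relation to the lymphatic sum was not particular to Piezo2. For Pkd1 rho with that sum was 0.59 over the 31 libraries and 0.54 after group means were removed, and for Trpv4 it was 0.28 and 0.54. With the sensory neuron marker sum Piezo2 had a rho of 0.21 over the 31 libraries and of -0.06 after group means were removed. The lymphatic sum was 20.5 to 48.8 CPM in coarct BAT and 49.1 to 98.7 CPM in coarct below, with no overlap, and 131 CPM in sham BAT 22 against 34.3 to 44.8 CPM in the other 3. The part of these cell types in the Piezo2 difference was not tested. The genes most like Piezo2 were Myof, the membrane repair protein myoferlin (rho 0.83), Fyb1, an adaptor of leukocyte signalling (0.81), and Sema3c, a secreted semaphorin (0.81). With 1 to 56 counts per library, Piezo2 was the least precisely measured of the 8.

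Trpv2 was lower in sham PVAT than in BAT at an unadjusted p only. In sham BAT it measured 2.75, 5.24, 4.05 and 2.79 CPM in libraries 20, 22, 24 and 26, and in sham above 2.998, 1.63, 2.43, 3.29 and 1.97 CPM in libraries 20, 22, 24, 26 and 28. All 5 sham above and all 5 sham below libraries lay under the BAT median of 3.42 CPM. The log2 difference of sham above from BAT was -0.69 (SE 0.271, interval -1.26 to -0.11, unadjusted p = 0.0230, edgeR adjusted p = 0.482), beside 0.648% of 14190 genes called. That of sham below from BAT was -0.82 (SE 0.272, interval -1.40 to -0.24, unadjusted p = 0.00856, edgeR adjusted p = 0.238), beside 0.81% called. In the latter comparison same-number libraries varied together, and with the title number as a block the difference was -0.9998 (edgeR adjusted p = 0.0837). The block called 285 genes in place of 115, and again 0 of the 8. In coarcted rats Trpv2 differed from BAT by -0.42 above (interval -0.94 to 0.10) and by 0.02 below (-0.51 to 0.54), the latter turning to -0.61 without the libraries with neuron transcripts. The channels other than Trpv2 and Piezo2 differed between PVAT and BAT by at most 0.39 on the log2 scale, in either direction, in both surgeries and at both sites. Over these 4 comparisons the estimates ran from -0.24 to 0.22 for Piezo1, from -0.39 to 0.07 for Trpv4, from -0.06 to 0.29 for Pkd1 and from -0.15 to 0.22 for Pkd2. They ran from -0.19 to -0.06 for Tmem63a and from -0.14 to 0.14 for Tmem63b. DESeq2 and limma called 0 of the 8 in both sham comparisons.

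Piezo1 levels were alike at sites that shared a title number and ranged 4.03-fold over the libraries. Number 23 had 245 CPM above, 253 CPM below and 155 CPM in BAT, number 30 had 195, 198 and 163 CPM, and number 24 had 160, 206 and 215 CPM. At the low end, number 19 had 105, 73.1 and 90.3 CPM and number 26 had 108, 77.7 and 85.5 CPM. Both ends held both surgeries, since 23, 30 and 19 were coarcted and 24 and 26 sham. Exceptions were number 20, with 210 CPM below against 111 above and 101 in BAT, and number 29, with 62.7 CPM in BAT against 132 above and 166 below. Means by number ran from 89.3 to 218 CPM, a 2.44-fold span from lowest to highest. The sites above and below with the same number differed by 1.01- to 1.89-fold, with a median of 1.29-fold over 11 numbers. A median over pairs is smaller than a span by its make, and pair medians of the other genes ran from 1.09-fold (Tmem63b) to 1.82-fold (Trpv2). Of the variance of Piezo1 within groups (log2 CPM), 79.2% lay between title numbers, against a median of 46.4% over 15020 genes, of which 3.94% reached at least that share. Pkd2 followed with 64.7%, Tmem63b with 62.0%, Tmem63a with 56.6%, Pkd1 with 52.4%, Piezo2 with 49.6% and Trpv4 with 47.7%. Trpv2 was at the other end with 17.9%, a share that 98.4% of genes reached or passed. If a number marks 1 rat, which no source states, these shares describe differences between rats. The genes most like Piezo1 over the 31 libraries were Tp53inp2, an autophagy and transcription cofactor (rho 0.87), Cbfa2t3, a transcriptional corepressor (0.86), and Otop1, a proton channel found in brown fat (0.84).

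**Figure D5:**
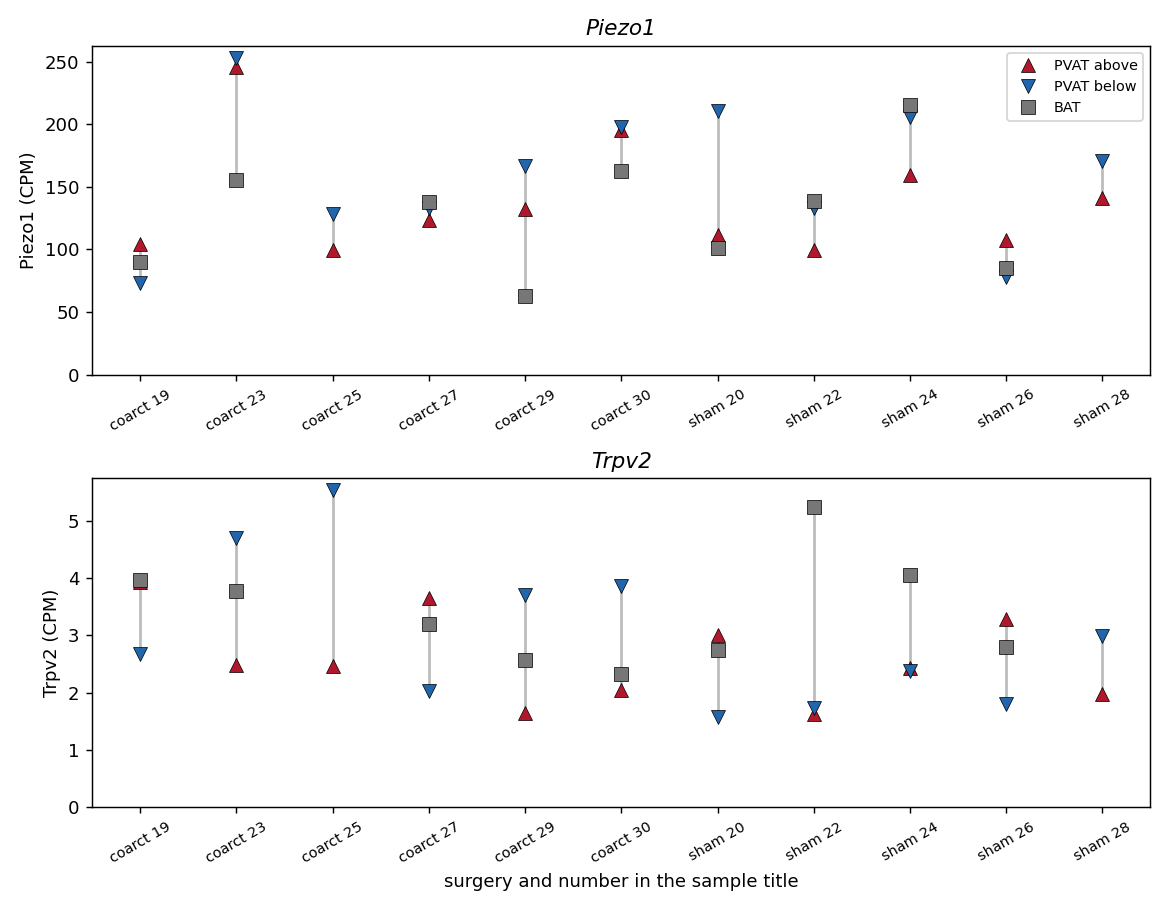
Piezo1 (top) and Trpv2 (bottom) in CPM by the number in the sample title, with a triangle up for PVAT above, a triangle down for PVAT below and a square for BAT; grey lines span the sites of a number. Piezo1 is high at all sites of numbers 23, 24 and 30 and low at all sites of 19 and 26, while the Trpv2 values of a number spread as far as those of different numbers.

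The polycystins and Piezo2 varied together and opposite to Tmem63b. Over the 31 libraries rho was 0.61 between Pkd1 and Pkd2, 0.64 between Pkd1 and Piezo2 and 0.49 between Pkd2 and Piezo2. With Tmem63b it was -0.50 for Pkd1, -0.55 for Pkd2 and -0.58 for Piezo2. Piezo1 and Tmem63b had a rho of 0.48. Trpv2 had a rho between -0.21 and 0.29 with each of the other 7. Pkd1 and Pkd2 also followed the gene length slope of the library, with rho of 0.62 and 0.65, and their gene lengths in the deposited annotation were 13813 and 4851 bases, the former the longest of the 8. The part of the slope in their joint variation was not tested. Genes most like Pkd1 were Prrc2b (0.90), Med13l, a Mediator subunit (0.89), and Nav1, a neuron navigator (0.87). For Pkd2 they were Tbc1d2b (0.82), Slfn5 (0.81) and Elf4, an ETS transcription factor (0.79).

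Trpv4 varied with the fibroblast markers, with a rho of 0.67 over 31 libraries and 0.62 after group means were removed, but not with these alone. With the T cell sum rho was 0.60 and 0.52, and with the macrophage sum 0.51 and 0.40. With the vascular smooth muscle sum Trpv4 had a rho of 0.44 and 0.53. Its 3 most similar genes were Zdhhc8, a palmitoyltransferase (0.79), Tgfbi, an extracellular matrix protein (0.77), and Kremen1, a Wnt pathway receptor (0.76). Tmem63a and Tmem63b had the narrowest ranges of the 8 from lowest to highest library: Tmem63a ran from 6.84 to 14.2 CPM, a 2.07-fold span, and Tmem63b from 56.8 to 120 CPM, a 2.11-fold span. The SD of log2 CPM within groups was 0.27 and 0.28 for this pair and 0.26 for Pkd2. Genes most like Tmem63a were Tmem184b (0.80) and Cpt1b, the muscle and brown fat form of the mitochondrial carnitine palmitoyltransferase (0.79). Genes most like Tmem63b were Rbpms2, an RNA-binding protein (0.90), Crat, the carnitine acetyltransferase (0.88), and Pgam1, a glycolytic enzyme (0.87). Tmem63b was lower where macrophage markers were higher, with a rho of -0.58 over 31 libraries, -0.73 in PVAT and -0.30 in BAT. Other sums went the same way, with a rho over 31 libraries of -0.48 for lymphatic, -0.35 for cardiac muscle and -0.34 for T cell markers. The highest rho of Tmem63b was 0.10, with the white adipocyte sum. Piezo1 also fell with the macrophage sum, with a rho of -0.51, while Piezo2 and Trpv4 rose with it (0.46 and 0.51).

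Of 30 other channels that are gated or modulated by stretch, 22 were tested in PVAT and 21 against BAT. Against BAT, edgeR called 1 of 21 in coarct above and 1 of 21 in coarct below, beside 1.28% and 4.2% of all genes. In sham above and sham below against BAT it called 0 of 21, beside 0.648% and 0.81%. In the 5 PVAT comparisons edgeR called 0 of the 22 each time, beside 0% to 0.103% of all genes. Of the 22, 1 to 4 had an unadjusted p under 0.05, beside 2.42% to 5.43% of all genes. The 4 were in coarct above against coarct below, where the share of all genes was 5.43%. The lowest p between coarctation and sham belonged above the ligature to Scnn1b and below it to Scnn1a, subunits of the epithelial sodium channel, with log2 differences of -0.89 and 0.78 (edgeR adjusted p = 0.999 and 0.881). Scnn1b also had the lowest p of the interaction, at -1.15. In BAT, 0 of 17 were called and 0 had an unadjusted p under 0.05, the lowest p being that of Trpm7, a channel with a kinase domain, at -0.58. Kcnk2, the stretch-gated potassium channel TREK-1, was higher in coarct above than in coarct BAT with a log2 difference of 4.41 (SE 0.961 and edgeR adjusted p = 0.0287). It did not pass the count filter among the BAT libraries alone and entered the tests against BAT through the PVAT libraries where it was high, so these values describe a gene that had to differ. Its log2 difference above minus below the ligature was 3.62 in coarcted and 3.96 in sham rats, with edgeR adjusted p = 0.0861 and 0.253. Whether Kcnk2 would pass the filter among the below libraries alone was not checked, so these values too are a description. The cardiac muscle sums given above were high in the same above libraries, and their part was not tested. Kcnk2 also had the lowest p in sham above against sham BAT, at 3.67 (edgeR adjusted p = 0.176), and in sham below against sham BAT it was Panx1, a large-pore channel, at -0.98 (edgeR adjusted p = 0.238). Tmem63c, the third TMEM63 gene, was higher in coarct below than in coarct BAT by 2.75 (SE 0.637, edgeR adjusted p = 0.0220). It too failed the filter among the BAT libraries alone. Its other estimates against BAT were 1.28 in coarct above, 1.49 in sham below and 0.81 in sham above, none of them called. The part of the neuron transcripts of coarct below in the Tmem63c difference was not tested. Against BAT, median log2 differences of this list were -0.02 to 0.14 in sham and -0.08 and 0.10 in coarcted rats, beside medians of all genes between -0.02 and 0.00.

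Of 16 genes for partners and modulators of the channels in the table, 14 were tested in PVAT. In each of the PVAT comparisons edgeR called 0 of them, beside 0% to 0.103% of all genes. The lowest p was that of Cav1, the coat protein of caveolae, above (log2 difference 0.19) and of Itpr3, an inositol trisphosphate receptor, below (0.55), and edgeR adjusted p = 0.999 and 0.881. Ryr2, the calcium release channel of heart muscle, was higher in sham above and coarct above than in BAT, by 7.97 and 7.73 on the log2 scale (edgeR adjusted p = 0.00557 and 0.00303). Like Kcnk2, it did not pass the filter among the BAT libraries alone and entered through the PVAT libraries. It was also the gene of lowest p above against below the ligature, by 4.75 in coarcted and 6.93 in sham rats (edgeR adjusted p = 0.0760 and 0.0566). Kif3a, a motor of cilium transport, had the lowest p in coarct below against BAT (0.84, edgeR adjusted p = 0.0527), and in sham below against BAT it was Cav1 (-0.28, edgeR adjusted p = 0.443). In BAT the lowest p was that of Tmem33, at -0.41, and for the interaction that of Itpr3, at -0.45. Of 18 transcripts known to respond to stretch and shear, edgeR called 0 between coarctation and sham at either site, beside 0% of all genes. The median log2 difference of these 18 was -0.22 above and -0.05 below the ligature, beside 0.01 and 0.01 over all genes. The lowest p was that of Thbd, an endothelial anticoagulant receptor, above (-0.47) and of Cyr61, a matrix-associated YAP target, below (-1.01), with edgeR adjusted p = 0.999 and 0.881. For the interaction it was Thbd, at -0.42, and in BAT Ajuba, a LIM protein, at 0.41. Ankrd1, a cardiac and skeletal muscle ankyrin protein that rises on stretch, was higher above than below the ligature in both surgeries. The log2 differences were 6.73 in coarcted and 6.59 in sham rats (edgeR adjusted p = 0.00107 and 0.00513). The cardiac muscle markers summed to at most 17.8 CPM in coarct below and 8.34 CPM in sham below. Whether Ankrd1 and Ryr2 would pass the count filter among the below libraries alone was not checked. Their differences between sites are therefore given as a description. Ankrd1 is itself on the cardiac muscle marker list, as is Ryr2, so its rise with those markers is no separate observation. Against BAT Ankrd1 was higher by 7.67 in sham above and by 6.99 in coarct above (edgeR adjusted p = 0.000484 and 0.000377). Of the 18 genes, 17 passed the count filter among the BAT libraries alone, and the Ankrd1 differences from BAT are given as a description. Ctgf, a matrix-associated target of the YAP pathway, was higher than in BAT in sham above by 1.76 and in coarct below by 1.35 (edgeR adjusted p = 0.0301 and 0.0467). Of all genes, edgeR called 0.648% and 4.2% in these 2 comparisons. In sham below Ctgf differed from BAT by 1.34 (edgeR adjusted p = 0.108). In coarct above against BAT edgeR called 1 of the 18, which was Ankrd1 and not Ctgf, beside 1.28% of all genes.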

How the data were processed

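The authors deposited whole-number read counts per Ensembl gene, 1 column per library, and FPKM, which the counts, a fixed length for each gene and the library totals gave back to a relative deviation of at most 6.77e-15. Per the submitters' processing notes, the tools were STAR 2.5, HTSeq 0.6.1 and DESeq2 1.24.0, with no role given, and the build is not given in the sources used here. Whether counting used strand is not stated, so reads of overlapping antisense genes cannot be told apart. CPM is the count scaled to the library total.

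The main test was the quasi-likelihood test of edgeR 4.0.16 (R 4.3.3) on the counts, with filterByExpr, TMM factors and Benjamini-Hochberg adjustment over the genes tested, in fits of 22 PVAT, 9 BAT, 14 sham and 17 coarcted libraries. SE is the size of the log2 difference over the root of its F statistic. Likeness between genes is Spearman rho of TMM log2 CPM (prior count 2, which replaced a smaller offset after a first run had been seen). Alternatives included DESeq2 1.42.0, limma 3.58.1 on log2(FPKM + 1) and log2(FPKM + 0.1), no filter, each library left out and the title number as a block. The fit was tested on simulated data with known changes. Title numbers were taken to pair libraries where all same-number pairs had deviations that correlated over 0.1, which held for sham below with sham BAT (4 of 4 pairs, 0.18 to 0.35) and for no other pair of groups; numbers of block calls had been seen by then. The fits without the 5 libraries rich in neuron transcripts and with the mitochondrial rRNA split as a term were chosen after seeing the data.

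The 8 genes and the other lists were chosen with earlier results of these data known. The estimate of each channel gene tested is given in each comparison, some as a range over comparisons; of the other lists, the genes called, or else the gene with the lowest p, and for each channel the 3 genes most like it, of which 1 is not reported here. Other genes named were chosen after their values were seen.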

Additional observations from a re-analysis of the deposited data

Results flagged for a closer look

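In 3 of 48 sets of values (8 genes in 6 groups of 4 to 6 libraries), 1 library lay far from the others of its group by Dixon's test on CPM. Chance flags about 1 in 20 sets, or 2.4 of 48, so that this number is close to what chance gives. Trpv4 in coarct above 29 was 0.845 CPM, against 1.80 to 2.14 CPM in the other 5 libraries of the group. That library also had the lowest Piezo2 of all libraries, with 1 count. Trpv4 in coarct below 25 was 3.48 CPM, against 0.984 to 1.72 CPM in the other 5. Trpv2, Piezo2 and Pkd1 were also highest within coarct below in that library, which held the largest sums of sympathetic neuron and skeletal muscle markers of the group, 854 and 2774 CPM. Tmem63b in coarct above 30 was 113 CPM, against 72.5 to 84.2 CPM in the other 5, and that library held few cardiac transcripts, 1.51 CPM against a group median of 723 CPM. The part of these marker sums was not tested.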

How the results depend on the processing

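The number of channel genes called was 0 under 104 of 105 alternative settings over the 10 comparisons and in 114 of 115 fits that left out 1 library. The exceptions were both in coarct below against coarct BAT, where DESeq2 called 1 (Piezo2) and the fits without 1 library called 0 to 1. With the replicate block, the count was 0 in each comparison where numbers recur, and it changed no call of the 8. Outside sham below against sham BAT the check was not met in full, yet many same-number pairs had deviations that correlated over 0.1. They were 5 of 6 for coarct above with below, 4 of 5 for coarct below with BAT and 3 of 5 for coarct above with BAT. In sham rats they were 3 of 5 for above with below and 1 of 4 for above with BAT. Of 79 log2 differences, 42 kept their sign in all alternatives and all fits without 1 library, and the largest that lost it had a size of 0.43: Trpv2 in coarct above against coarct below, 0.18 without the 5 libraries rich in neuron transcripts. The cause was not tested.

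The counts over all genes moved more. DESeq2 called 8 in coarct above against sham above and 1 in coarct below against sham below, where edgeR called 0, and 222 and 44 genes between sites in coarcted and sham rats where edgeR called 15 and 10. Between PVAT and BAT, DESeq2 called 232, 327, 507 and 1389 genes where edgeR called 92, 115, 183 and 600. Over the other settings the counts ran from 1 to 183 between sites in coarcted rats and from 0 to 21 in sham rats. Against BAT they fell to 52 in sham above, 34 in sham below, 60 in coarct above and 82 in coarct below. Leaving out 1 library gave 0 to 169 genes in coarct below against sham below (the highest without sham below 28), 12 to 185 between the coarcted sites (without coarct below 19) and, without coarct BAT 27, up to 913 and 2621 in coarct above and coarct below against coarct BAT. Piezo2 with 1 to 56 counts, Trpv4 with 15 to 73 and Trpv2 with 29 to 139 per library are limited by depth.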
